A study of Mus musculus with 90 samples.

Results

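The genes described here encode collagens, basement membrane proteins and other proteins of the extracellular matrix. They were taken as 40 named genes, and each was followed through the probe sets whose chip annotation gives that gene as its only symbol. Of the 40 genes, 35 had a probe set bright enough to test, with 62 such probe sets in all, against 12373 genes and 24307 probe sets tested in the whole series. *Nid1*, *Col11a1* and *Mmp2* had only probe sets too dim to test, *Thbs1* only a probe set with several symbols, and no probe set of *Fbn1* was analysed here. The cells were primary myoblasts from skeletal muscle of MyoD-/- mice. They proliferated on plates coated with 0.01% collagen, in Ham's F10 nutrient mixture that held 20% FBS and 250 ng/ml bFGF. At 0h this was exchanged for DMEM hg with 2.5% horse serum, in which myoblasts differentiate into myotubes. RNA was read on the Affymetrix chips MG_U74Av2, MG_U74Bv2 and MG_U74Cv2 in each of 3 cultures, named 1999, P6 and P10, at 10 times. These were 0h, then 6h, 12h, 18h and 24h on the first day, 36h and 48h on the second, and finally 3d, 4d and 7d, which gave 90 arrays. Every sample carried the same genotype, so the comparisons are between times or between cultures. The labels do not say what the culture names stand for, nor whether the cultures came from separate animals. The p-values below therefore rest on the spread left among these samples after the terms of the model. Of the mice they state the genotype MyoD-/- and no other allele, age or strain.

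Collagens are triple helices of 3 chains. Types I, III and V assemble into fibrils, while type IV forms the network of the basement membrane, the sheet of matrix that lies against each muscle fibre. In that sheet the laminins, which are trimers of an alpha, a beta and a gamma chain, bind integrins and dystroglycan on the cell surface, nidogens join laminin to type IV collagen, and perlecan adds heparan sulfate chains. Type VI collagen makes beaded filaments between the basement membrane and the fibrils, and mutations in its genes or in the laminin alpha 2 gene cause muscular dystrophies.

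Promoter windows were analysed for 28 of the 40 genes, from 250 bases before to 50 bases after the start of transcription (RefSeq, build GRCm38.p6). The windows of *Col4a1* (chr8:11312777-11313076, minus strand) and *Col4a2* (chr8:11312555-11312854, plus strand) lie on opposite strands and share 78 bases at their 3′ ends. They are shown because these genes passed in the comparison of early to late change between cultures, a result that changed with the settings, as given below. The window of *Col1a2* (chr6:4505368-4505667, plus strand) belongs to the member with the greatest difference between cultures. Those of *Col3a1* (chr1:45311288-45311587, plus strand) and *Postn* (chr3:54360857-54361156, plus strand, the later of its 2 listed starts) belong to genes with large rises. Sequences run 5′ to 3′, and capitals mark the TATA box letters TATAAA, the CCAAT box and the Sp1-type motif GGGCGG, each on either strand.
Col4a1: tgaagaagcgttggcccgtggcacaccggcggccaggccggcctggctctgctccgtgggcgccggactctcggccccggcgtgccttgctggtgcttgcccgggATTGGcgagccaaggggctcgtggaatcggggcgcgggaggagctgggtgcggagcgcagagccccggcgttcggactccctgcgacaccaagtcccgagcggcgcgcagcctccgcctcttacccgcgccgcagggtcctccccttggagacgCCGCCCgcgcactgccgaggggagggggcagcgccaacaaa
Col4a2: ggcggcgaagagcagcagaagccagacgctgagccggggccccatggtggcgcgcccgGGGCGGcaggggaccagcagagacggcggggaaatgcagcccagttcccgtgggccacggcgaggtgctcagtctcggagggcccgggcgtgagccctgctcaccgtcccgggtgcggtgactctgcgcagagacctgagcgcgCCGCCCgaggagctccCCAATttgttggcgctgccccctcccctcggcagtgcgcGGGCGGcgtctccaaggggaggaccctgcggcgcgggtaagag
Col1a2: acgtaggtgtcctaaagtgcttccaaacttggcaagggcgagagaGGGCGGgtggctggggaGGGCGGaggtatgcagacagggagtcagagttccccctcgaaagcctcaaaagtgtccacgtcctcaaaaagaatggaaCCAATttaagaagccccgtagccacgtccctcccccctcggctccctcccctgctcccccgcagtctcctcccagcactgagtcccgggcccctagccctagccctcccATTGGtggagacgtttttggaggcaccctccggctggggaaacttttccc
Col3a1: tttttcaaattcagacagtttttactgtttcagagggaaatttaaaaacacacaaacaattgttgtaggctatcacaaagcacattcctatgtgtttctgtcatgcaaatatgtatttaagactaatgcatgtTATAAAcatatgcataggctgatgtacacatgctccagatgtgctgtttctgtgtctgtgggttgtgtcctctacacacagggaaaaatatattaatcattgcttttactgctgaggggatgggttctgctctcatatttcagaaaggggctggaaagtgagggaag
Postn: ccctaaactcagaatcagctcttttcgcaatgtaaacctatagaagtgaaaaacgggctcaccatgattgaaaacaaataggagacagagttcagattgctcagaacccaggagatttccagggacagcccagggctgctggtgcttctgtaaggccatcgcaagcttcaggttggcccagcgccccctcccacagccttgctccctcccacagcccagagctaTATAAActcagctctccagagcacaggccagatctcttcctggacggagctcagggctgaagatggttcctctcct

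Counted from the start of transcription, TATAAA begins at position −26 in *Postn* and at position −117 in *Col3a1*, and it is not in the other 3 windows. The window of the earlier *Postn* start holds no TATAAA and 1 CCAAT. *Col1a2* holds CCAAT at 2 places and GGGCGG at 2, *Col4a2* holds them at 1 and 3 places, and *Col4a1* holds each of them once. The GGGCGG of *Col4a1* lies in the shared bases and is the same site as the last one of *Col4a2*. Over all 32851 mouse promoter windows of this length, TATAAA was in 13.6%, CCAAT in 37.4% and GGGCGG in 35.7%. Among the 28 genes it was 4, 12 and 20 genes in that order, counted in any window of a gene. Among their 33 windows it was 5, 12 and 22, which is the count of the same kind as the shares. CANNTG, the general form of the site bound by MyoD and related factors, was in 72.3% of all windows. It was in 19 of the 33 windows and in 17 of the 28 genes. CAGAC, a SMAD site, was in 49.6% of all windows, in 21 of the 33 and in 19 genes. A match may share bases with a match of another motif, and it describes the letters of the window only.

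The deposited values are MAS5 signals, an intensity on a linear scale, and changes are given as differences of log2(signal + the 25th percentile of the chip table), which is 119.8 on MG_U74Av2, where 33 of the 35 genes were read. A fold change of a gene whose mean lies near that value is therefore smaller than the ratio of the means. Means carry the SD over 3 cultures and log2 changes the standard error of the model, which had time and culture as terms (limma, Benjamini-Hochberg adjustment over all 24307 probe sets, threshold 0.05). The *Myod1* probe set gave signals from 2598 to 6889. The part of the gene it covers was not analysed here, so it does not check the genotype. At 0h *Cdh15*, the muscle cadherin, was at 757 ± 376 and *Des*, the muscle intermediate filament, at 447 ± 69.6, beside a chip median of 527.3. Means of the muscle list at 0h ran from 44.4 ± 21.6 for *Mef2c* to 2358 ± 1896 for *Mymk*, which was read on MG_U74Bv2. Whether a gene was present was not tested. The summed signal of 12 muscle differentiation genes set the cultures apart. It went from 17400 at 0h to 621922 at 24h in P10 and from 8349 to 124863 in P6, but it was 7566 and 12320 in 1999. In 1999 it stood at 121640 at 36h and 107332 at 48h, then at 17079 at 3d, 28049 at 4d and 297062 at 7d, so the 1999 arrays of 36h and 48h stood apart from their neighbours, and results that rest on them are also given without them.

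**Figure D1:**
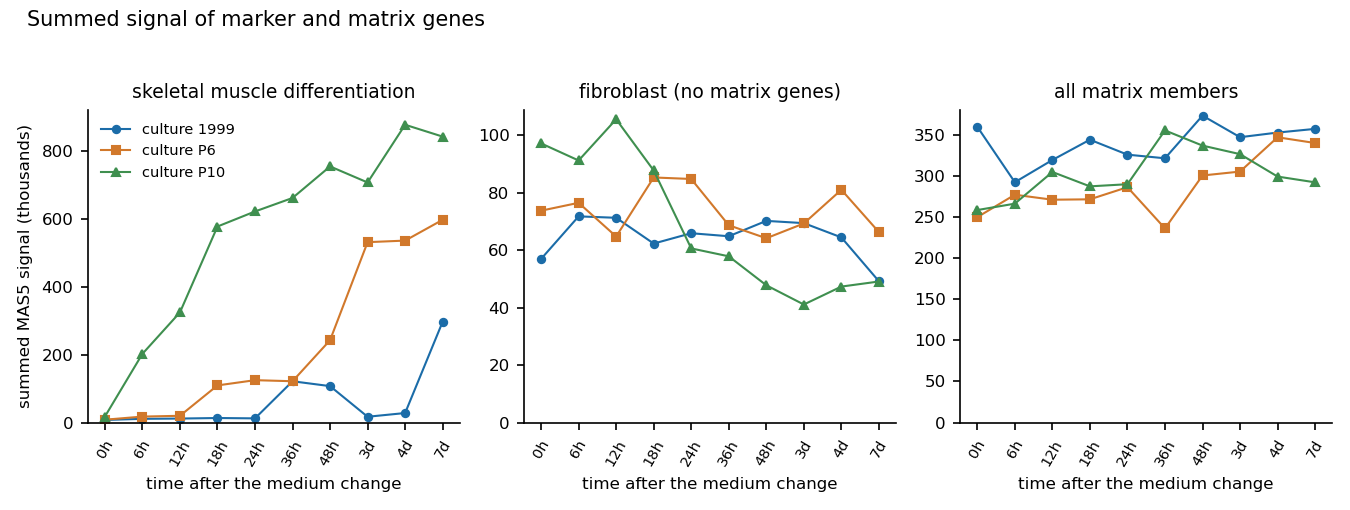
Summed MAS5 signal (vertical axes, from 0, in units of 1e3) at each time after the medium change (horizontal axes) for 12 muscle differentiation genes, 13 fibroblast genes outside the matrix and 38 matrix genes, with 1 probe set per gene and 1 line per culture. The muscle sum in 1999 goes from 12320 at 24h to 121640 at 36h and back to 17079 at 3d, while the matrix sums lie between 236136 and 373297 throughout. The fibroblast sum is mostly the signal of *S100a4*.

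By 1 probe set per gene, more matrix genes were called higher than lower, and most were called neither. Of the 35 genes, 12 were higher than at 0h at 1 or more times, 3 were lower, 0 were both and 20 passed at no time. The matching shares of all genes over the times together were not counted, so these counts stand without a background. Matrix genes higher at 5 or more times were *Col3a1*, *Nid2*, *Lamb2*, *Mgp*, *Col6a1*, *Postn* and *Col6a2*. At 6h 2 of 35 genes were higher, beside 0.938% of all 12373 genes by 1 probe set each. At 12h it was 3 (beside 2.42%), at 18h 5 (beside 5.96%) and at 24h 6 (beside 6.22%). At 36h 7 genes were higher (beside 6.09%), at 48h 11 (beside 7.57%), at 3d 9 (beside 7.12%), at 4d 9 (beside 7.65%) and at 7d 10 (beside 10.0%). As shares of the 35 genes these run from 5.71% at 6h over 17.1% at 24h and 31.4% at 48h to 28.6% at 7d, each above the share of all genes. Lower were 1 gene at 24h (beside 5.27%), 1 at 4d (beside 6.93%) and 2 at 7d (beside 9.33%), which as shares are 2.86%, 2.86% and 5.71%. The balance depended on the probe sets used. Over all 62 member probe sets 7 were lower at 4d, which is 11.3% (beside 5.2% of all probe sets), and 8 at 7d, which is 12.9% (beside 7.31%), while 13 were higher at 7d, which is 21.0% (beside 7.64%). The 8 lower ones at 7d belonged to *Col18a1*, *Lamb1* and *Fbln1*, so they share their genes. On MG_U74Av2 the 4d and 7d arrays of each culture were scanned in other sessions than its 0h array. Comparisons of 4d and 7d with 0h therefore also span a change of scan session. With scan session as a block 4 of the 12 genes called at 7d were lost, and the part of the session in the changes was not tested. The median log2 change over the 35 genes was −0.03 at 6h, 0.28 at 24h, 0.31 at 48h and 0.36 at 7d, beside 0.01, −0.00, −0.02 and −0.05 over all genes. With time as the only term of the model, without the replicate block of culture, 0 matrix genes passed at 6h (beside 0.137% of all genes), 0 at 12h (beside 0.63%) and 7 at 48h (beside 3.2%), all 7 of them higher. Without the 1999 arrays of 36h and 48h, 5 passed at 36h and 8 at 48h, and the shares of all genes in that setting were not counted.

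**Figure D2:**
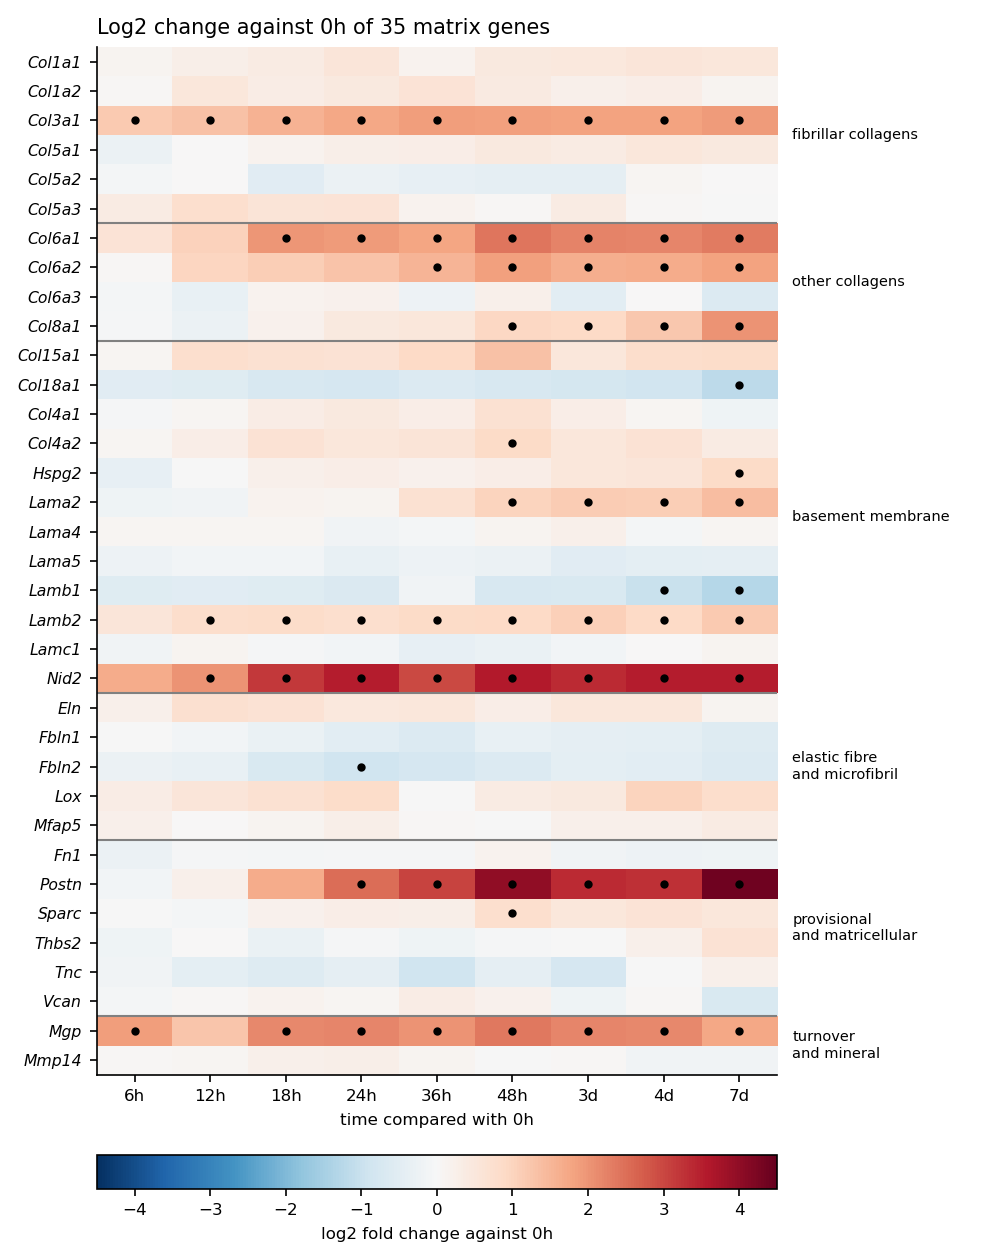
Log2 fold change against 0h (colour) of the 35 matrix genes (rows, grouped by role) at 9 later times (columns), with a black dot where the change passed the test. Dots run through nearly the whole row of *Col3a1*, *Nid2*, *Lamb2* and *Mgp*, start at 48h for *Col8a1* and *Lama2*, and mark a lower level only for *Col18a1*, *Lamb1* and *Fbln2*.

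Among the fibrillar collagens *Col3a1*, the single chain of type III collagen, was the only one of 6 tested genes to pass, and it did so at all 9 times. Its signal in 1999, P6 and P10 was 2910, 5362 and 4745 at 0h, 8258, 8451 and 13398 at 6h, and 13373, 20462 and 15801 at 7d. Every later value lay above every 0h value. The log2 change was 1.20 ± 0.24 at 6h (2.29-fold, adjusted p = 0.0138), 1.72 ± 0.24 at 24h (adjusted p = 4.3e-05) and 1.93 ± 0.24 at 7d (3.80-fold, adjusted p = 6.62e-06). The call held whichever culture was left out from 18h on, but at 6h and 12h it was lost without 1999, without P10 and without the culture term. Of its 2 further probe sets one gave 1.67 at 24h and 1.90 at 7d and the other 1.23 and 1.20, and all of these values passed.

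The other fibrillar chains passed at no time. *Col1a1*, the alpha 1 chain of type I collagen, had log2 changes from 0.11 to 0.55, with 37273, 7336 and 9309 at 0h and 26123, 13641 and 20166 at 7d in 1999, P6 and P10. Its signal was thus higher at 7d than at 0h in P6 and P10 and lower in 1999, and the groups overlapped. *Col1a2*, the alpha 2 chain of the same collagen, lay between 0.05 and 0.60, and its levels are given with the cultures below. *Col5a1*, *Col5a2* and *Col5a3*, the chains of type V collagen that sit in the core of fibrils, reached 0.53 at 4d, −0.52 at 18h and 0.77 at 12h at their farthest from 0. A further *Col5a1* probe set passed at 48h (1.23, adjusted p = 0.0492) and at 4d (1.24, adjusted p = 0.0489), but both calls were lost without each culture in turn.

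In the basement membrane group 4 of 12 tested genes were higher and 2 lower at 7d (beside 10.0% and 9.33% of all genes). *Nid2*, nidogen 2, a linker of laminin and type IV collagen, rose early. Its signal in 1999, P6 and P10 was 51.5, 199 and 305 at 0h, 349, 1406 and 2096 at 12h, 1880, 5596 and 3087 at 24h, and 3379, 5053 and 1874 at 7d. At 24h and 7d all 3 cultures were far above all 0h values, and 1999 had reached only 166 at 6h, when P6 and P10 were at 1561 and 1448. In log2 units it changed by 2.03 ± 0.46 at 12h (adjusted p = 0.0128), 3.54 ± 0.46 at 24h (11.7-fold, adjusted p = 1.79e-05) and 3.54 ± 0.46 at 7d (11.6-fold, adjusted p = 9.94e-06). From 18h on each of these calls held whichever culture was left out, and the 12h call was lost without P6, without P10 and without the culture term. The other nidogen gene, *Nid1*, had signals from 24.4 to 713 on a probe set that did not reach the brightness needed for a test.

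The laminin chains moved apart. *Lama2*, the alpha 2 chain of the laminin of mature muscle fibres, had 371, 295 and 173 at 0h, 657, 449 and 952 at 48h, and 805, 887 and 1049 at 7d in 1999, P6 and P10. All 48h and 7d values lay above the 0h values, with log2 changes of 1.00 ± 0.30 at 48h (adjusted p = 0.0341) and 1.40 ± 0.30 at 7d (2.63-fold, adjusted p = 0.00228). The 48h call was lost without each culture in turn, without the culture term and when the 36h and 48h arrays of 1999 were left out, and the 7d call was kept in each of these. *Lamb2*, the beta 2 chain found in mature fibres and at the neuromuscular junction, had 847, 776 and 1030 at 0h and 2435, 2077 and 1963 at 7d, again with no overlap, a log2 change of 1.18 ± 0.20 (2.27-fold, adjusted p = 0.000268), and calls at every time from 12h on. Before 7d each of these calls was lost without 1999. Its 3 further probe sets passed at no time, and the one with the most signal gave −0.30 at 24h and −0.21 at 7d.

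*Lamb1*, the beta 1 chain, moved down. Its signal was 1421, 1954 and 1976 at 0h and 1006, 580 and 460 at 7d in 1999, P6 and P10, so all 7d values lay below all 0h values. It fell by 1.02 ± 0.33 on the log2 scale at 4d (adjusted p = 0.0492) and by 1.29 ± 0.33 at 7d (2.45-fold, adjusted p = 0.00849). In P10 the signal was already 828 at 6h, while in 1999 it stood at 2634 at 3d. On this probe set the 4d call was kept in no alternative but the one without 1999, and the 7d call was lost without P6, without P10, without the culture term and with scan session as a block. However, a further probe set, with 3939, 4032 and 3912 at 0h and 1744, 1429 and 1064 at 7d, gave −1.44 ± 0.19 (adjusted p = 1.58e-05) and passed at 4d as well. *Lama4* and *Lama5*, alpha chains of vascular and epithelial laminins, and *Lamc1*, the common gamma chain, stayed between −0.51 and 0.23 in log2 change and passed at no time. *Lama4* was read from a probe set on MG_U74Cv2, with signals from 23690 to 46943. Its probe sets on MG_U74Av2 were too dim to test, at 59.8 to 371 and 22.6 to 331, and which one follows the transcript was not tested.

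The chains of type IV collagen gave 1 call. *Col4a2* had 1737, 2132 and 4170 at 0h and 4829, 4641 and 4405 at 48h in 1999, P6 and P10, with no overlap and a log2 change of 0.86 ± 0.27 (adjusted p = 0.0456). The change was 1.41 in 1999, 1.08 in P6 and 0.08 in P10, and the call was lost without 1999 as a whole or its 36h and 48h arrays alone, without P6 and without the culture term. *Col4a1* changed by 0.67 ± 0.34 at 48h and by −0.20 ± 0.34 at 7d and did not pass. *Hspg2*, which encodes perlecan, had 2795, 3621 and 4369 at 0h and 5472, 8254 and 6011 at 7d, above every 0h value (0.85 ± 0.23, adjusted p = 0.0129), and this call was lost without P6, without P10, without the culture term and with scan session as a block.

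*Col18a1*, a basement membrane collagen whose C-terminal fragment is endostatin, was lower late in the course. Its signal was 8834, 7693 and 6989 at 0h and 3301, 4582 and 2546 at 7d in 1999, P6 and P10, which did not overlap, and the log2 change was −1.18 ± 0.31 (2.26-fold, adjusted p = 0.0104). This call was lost without P10, without the culture term and with scan session as a block. Its 3 further probe sets gave −1.90, −2.14 and −2.27 at 7d with adjusted p from 4.89e-06 to 0.000237, and all of them passed at 4d as well. The probe set with −2.14 fell from 5564, 5806 and 4866 to 1516, 1234 and 758. *Col15a1*, a related collagen of muscle basement membranes, changed by 1.33 ± 0.49 at 48h (adjusted p = 0.0867) and is described with the cultures.

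**Figure D3:**
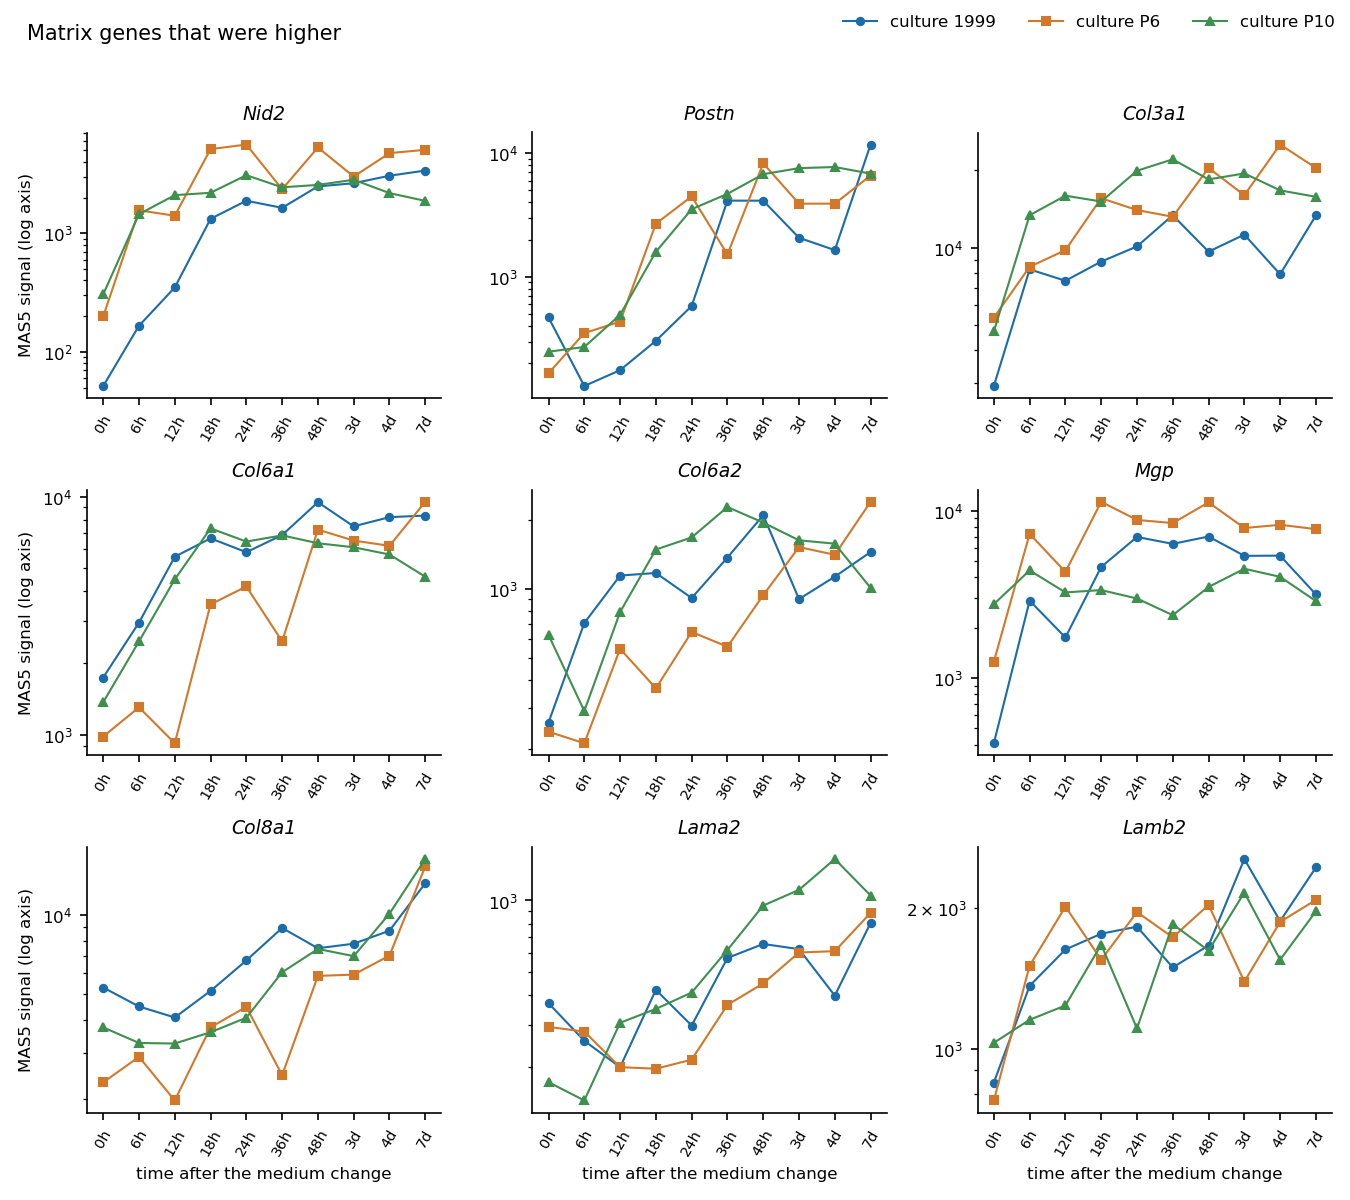
MAS5 signal (vertical axes, logarithmic) of 9 genes that were higher in the test at 4 or more times, at each time after the medium change (horizontal axes), with 1 line per culture. *Nid2*, *Col3a1* and *Mgp* are up at 6h in most cultures, *Postn* in 1999 is still at 581 at 24h and reaches 11712 at 7d, and *Col8a1* climbs to between 13194 and 16303 at 7d.

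The remaining collagens held a larger share of calls, with 3 of 4 genes higher at 48h and at 7d (beside 7.57% and 10.0% of all genes). *Col6a1*, the alpha 1 chain of type VI collagen, had 1743, 986 and 1374 at 0h, 6678, 3530 and 7351 at 18h, and 8319, 9503 and 4610 at 7d in 1999, P6 and P10. Every value from 18h on was above every 0h value. The log2 change was 1.97 ± 0.38 at 18h (adjusted p = 0.00144), 2.41 ± 0.38 at 48h (5.30-fold, adjusted p = 0.000157) and 2.32 ± 0.38 at 7d (5.00-fold, adjusted p = 0.000156), and a further probe set gave 2.50, 3.03 and 2.86 at these times. The calls of 18h to 36h on the first probe set were lost without 1999 and without P10, and the later ones held whichever culture was left out. *Col6a2*, the alpha 2 chain of the same trimer, had 260, 237 and 628 at 0h and 1447, 2400 and 1009 at 7d. It was called from 36h on, with 1.86 ± 0.43 at 48h (adjusted p = 0.00535) and 1.82 ± 0.43 at 7d (3.53-fold, adjusted p = 0.00452). At 36h the P6 value of 558 lay within the 0h range, and from 48h on no culture did. Each *Col6a2* call was lost without 1999. That of 36h was also lost without P10, without the culture term and without the 36h and 48h arrays of 1999, those of 3d and 4d without P6, without P10 and with scan session as a block, that of 3d without the culture term, and that of 7d without P6 and with scan session as a block. The 7d call of *Col6a1* was kept in all of these.

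*Col6a3*, the long alpha 3 chain of type VI collagen, was called at no time. It had 1158, 710 and 1118 at 0h and 680, 598 and 528 at 7d, a log2 change of −0.61 ± 0.36 that did not pass (adjusted p = 0.307), and a further probe set gave −0.42. *Col8a1*, a short-chain network collagen, was first called at 48h. Its signal was 5306, 2317 and 3745 at 0h, 7477, 5872 and 7431 at 48h, and 13194, 15276 and 16303 at 7d in 1999, P6 and P10. The 7d values were the highest of the course in each culture and close together. It changed by 0.92 ± 0.25 on the log2 scale at 48h (adjusted p = 0.0189) and 2.01 ± 0.25 at 7d (4.04-fold, adjusted p = 6.75e-06), and the 7d call held whichever culture was left out, while the 48h call was lost without P6, without P10 and without the culture term.

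Genes of elastic fibres and microfibrils gave 1 call among 5 tested, at 24h and downwards (beside 5.27% of all genes lower at 24h). *Fbln2*, fibulin 2, had 41382, 38534 and 19490 at 0h and 29632, 15076 and 10309 at 24h in 1999, P6 and P10. Each culture was lower at 24h, but the groups overlapped because the 1999 value at 24h exceeded the P10 value at 0h (−0.91 ± 0.27, adjusted p = 0.0394). The call was lost without P6, without P10, without the culture term, with scan session as a block, with quantile normalization and without the brightness filter, and a further probe set gave 0.82 with no call. *Fbln1*, fibulin 1, gave −0.48 ± 0.20 at 24h and −0.57 ± 0.20 at 7d (adjusted p = 0.0570) on its representative probe set and passed at no time. Its 2 further probe sets were called lower, one from 24h and the other from 36h on, with −1.48 and −1.25 at 7d, and each of their calls was lost without the culture term. The first of these had 1093, 554 and 296 at 0h and 233, 116 and 70.3 at 7d, so the P6 and P10 values at 7d were below the added 119.8. *Eln*, elastin, *Lox*, the oxidase that crosslinks collagen and elastin, and *Mfap5*, a microfibril glycoprotein, passed at no time, with log2 changes from −0.01 to 1.01. *Lox* at 24h was at 7031, 8976 and 9676 against 6549, 4040 and 3941 at 0h, above all 0h values without passing (0.83 ± 0.37, adjusted p = 0.196).

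**Figure D4:**
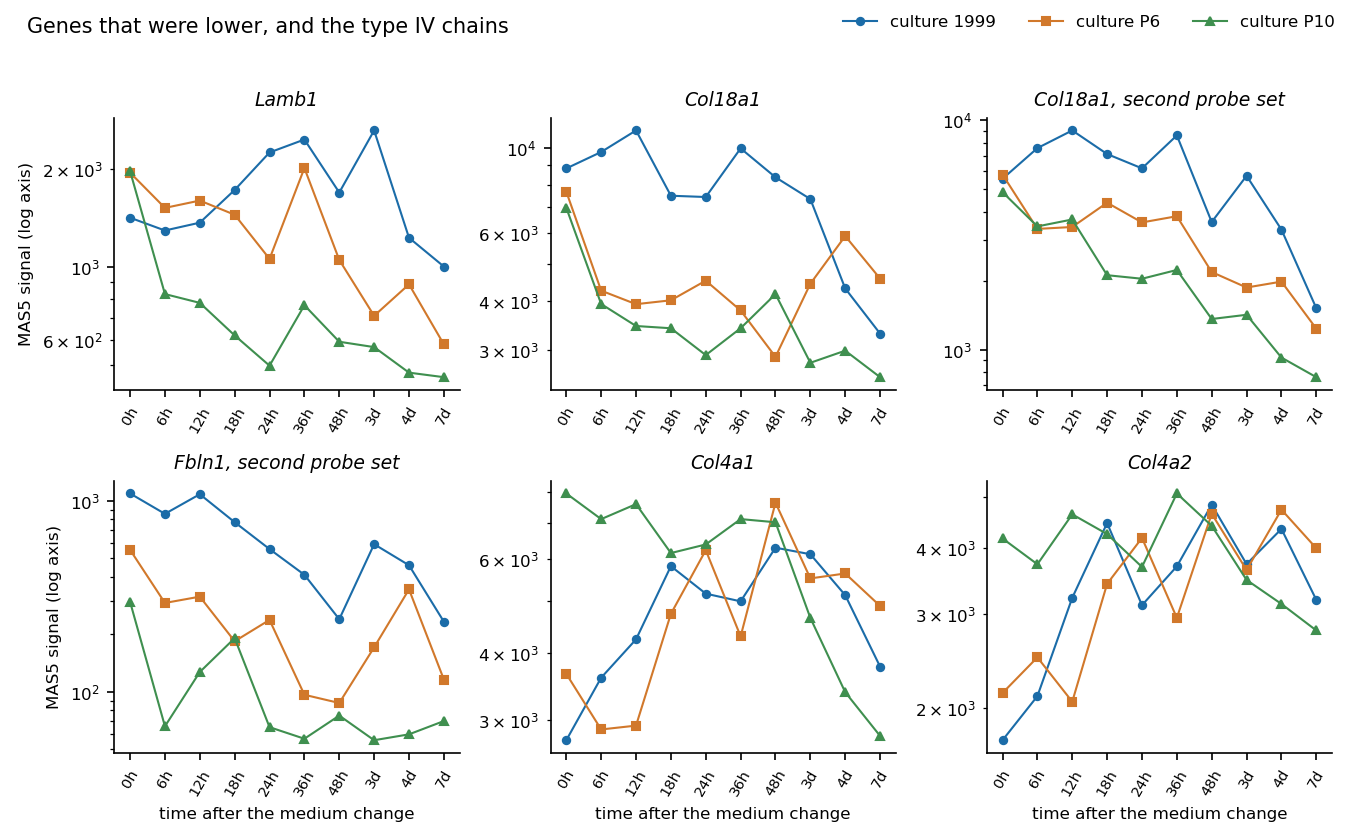
MAS5 signal (vertical axes, logarithmic) of *Lamb1*, *Col18a1* and a further *Col18a1* probe set, a further *Fbln1* probe set, *Col4a1* and *Col4a2* at each time after the medium change (horizontal axes), with 1 line per culture. The further *Col18a1* probe set ends between 758 and 1516 at 7d, and *Col4a1* in P10 goes from 7936 at 0h down to 2801 at 7d while 1999 and P6 end above their 0h signals.

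Among the proteins of provisional matrix and the matricellular proteins, *Postn* had the greatest rise of the 35 genes. It encodes periostin, a secreted protein that binds collagen and integrins. Its signal in 1999, P6 and P10 was 469, 166 and 248 at 0h, 176, 434 and 493 at 12h, 581, 4466 and 3519 at 24h, 4123, 8257 and 6751 at 48h, and 11712, 6587 and 6819 at 7d. P6 and P10 were clear of the 0h values by 18h, at 2686 and 1591, when 1999 was at 304. In 1999 the signal was 4127 at 36h, 2067 at 3d and 1643 at 4d. Its log2 change was 2.52 ± 0.60 at 24h (5.74-fold, adjusted p = 0.00875), 3.98 ± 0.60 at 48h (adjusted p = 8.87e-05) and 4.37 ± 0.60 at 7d (20.7-fold, adjusted p = 2.02e-05). At 24h it was 0.25 in 1999 against 4.00 in P6 and 3.31 in P10, and the call was lost without either of the latter. At 48h and 7d it held whichever culture was left out.

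*Sparc*, osteonectin, a collagen-binding protein, had 21372, 18772 and 24584 at 0h and 32432, 33164 and 46022 at 48h, with no overlap (0.77 ± 0.22, adjusted p = 0.0217). That was its only call, and it was lost without P6, without P10, without the culture term and without the 36h and 48h arrays of 1999. *Fn1*, fibronectin, the main protein of provisional matrix, moved little, with log2 changes from −0.28 to 0.17 and signals from 6062 to 12216 over the 30 arrays. *Tnc*, tenascin C, *Thbs2*, thrombospondin 2, and *Vcan*, the proteoglycan versican, passed at no time. Their values farthest from 0 were −0.90 at 36h, 0.66 at 7d and −0.67 at 7d. *Tnc* in 1999 was at 2152 at 7d against 729 at 0h, while P6 was at 368 against 312 and P10 at 280 against 648.

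*Mgp*, matrix Gla protein, which inhibits calcification of matrix, had 408, 1252 and 2767 at 0h, 2904, 7286 and 4404 at 6h, 6977, 8821 and 2992 at 24h, and 3165, 7774 and 2887 at 7d in 1999, P6 and P10. No 6h, 24h or 7d value lay within the 0h range, although the 24h and 7d values of P10 were close above its 0h value. The log2 change was 1.87 ± 0.46 at 6h (adjusted p = 0.0480), 2.19 ± 0.46 at 24h (4.56-fold, adjusted p = 0.00328) and 1.74 ± 0.46 at 7d (adjusted p = 0.0111). It was 3.75, 2.70 and 0.11 at 24h in 1999, P6 and P10, and each *Mgp* call was lost without 1999 and without P6. Without the culture term the calls of 6h, 36h and 7d were lost, and the 6h call was also lost when the 6h and 12h arrays of P6 were left out. *Mmp14*, a membrane-bound collagenase that activates pro-*Mmp2*, stayed between −0.16 and 0.26 in log2 change and passed at no time.

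No matrix gene passed between 24h and 48h or between 48h and 7d (0 of 35 in limma, beside 0.0% of all genes in each comparison, and 3 and 6 matrix genes at an unadjusted p under 0.05, beside 3.68% and 7.78% of all genes). From 48h to 7d the log2 change farthest from 0 was that of *Col8a1*, 1.1 ± 0.25 (adjusted p = 0.221). In the joint test over all times 10 of 35 genes passed, beside 10.9% of all genes, and 6 without the culture term, beside 4.52%. The smallest adjusted p were 1.67e-05 for *Postn*, 2.42e-05 for *Col8a1*, 6.34e-05 for *Nid2* and 0.000127 for *Col3a1*, which did not pass without the culture term (adjusted p = 0.0573).

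Genes that modify, cut or bind the matrix were followed in 4 lists. Beside their counts, 6.22% of all genes were higher and 5.27% lower at 24h, and 10.0% and 9.33% at 7d. Of 18 tested genes for folding and crosslinking of collagen 6 were higher and 2 lower at 7d, with a median log2 change of 0.13 beside −0.05 over all genes. *P4ha1*, a prolyl hydroxylase that stabilises the collagen helix, rose from 2229 ± 1042 to 4561 ± 518 (1.08 ± 0.22, adjusted p = 0.00128), and *Tgm2*, a crosslinking transglutaminase, from 122 ± 67.4 to 577 ± 215 (1.51 ± 0.36, adjusted p = 0.00484). *Loxl3*, a lysyl oxidase, fell from 3309 ± 523 to 1084 ± 674 (−1.53 ± 0.47, adjusted p = 0.0294), and *Ppib*, a prolyl isomerase of the endoplasmic reticulum, by a log2 change of −0.57 ± 0.19 (adjusted p = 0.0480). At 24h 3 were higher and 0 lower, led by *Loxl1*, a lysyl oxidase of elastic fibres (0.84 ± 0.19, adjusted p = 0.00586), and *Pcolce*, an enhancer of procollagen cleavage (1.02 ± 0.26, adjusted p = 0.0132). Without the culture term *Tgm2*, *Loxl3* and *Ppib* did not pass.

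Of 18 tested proteases and inhibitors 3 were higher and 2 lower at both 24h and 7d. Of all genes 6.22% were higher and 5.27% lower at 24h, and 10.0% and 9.33% at 7d. *Adamts5*, a versican- and aggrecan-cleaving protease, rose from 1127 ± 806 at 0h to 10940 ± 6321 at 24h and 15530 ± 6783 at 7d (3.57 ± 0.53, adjusted p = 4.23e-05). *Timp1*, an inhibitor of metalloproteinases, fell from 61740 ± 11250 to 26170 ± 7334 and 15810 ± 4826 (−1.98 ± 0.30, adjusted p = 7.96e-05). *Mmp13*, a collagenase, fell from 687 ± 371 to 107 ± 4.67 at 7d (−1.72 ± 0.36, adjusted p = 0.00157). *Mmp19* was higher at 24h (1.03 ± 0.30, adjusted p = 0.0360) and *Ctsb*, cathepsin B, at 7d (0.72 ± 0.17, adjusted p = 0.00396). The medians of the list were 0.36 at 24h and 0.40 at 7d. Without the culture term the calls of *Mmp19* and *Ctsb* and the 24h calls of *Timp1* and *Mmp13* were lost.

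Of 21 tested integrins and other matrix receptors 5 were higher and 1 lower at 24h (beside 6.22% and 5.27% of all genes). At 7d 7 were higher and 3 lower (beside 10.0% and 9.33%), and the medians were 0.21 at 24h and 0.41 at 7d. *Itga7*, the laminin receptor chain of muscle, rose from 2685 ± 672 to 9531 ± 3969 at 7d (1.72 ± 0.17, adjusted p = 4.02e-07), and *Dag1*, dystroglycan, from 5142 ± 1145 to 16590 ± 3567 at 24h and 25130 ± 2297 at 7d (2.28 ± 0.23, adjusted p = 5.21e-07). *Sdc2*, a heparan sulfate proteoglycan of the cell surface, was among those higher at 24h (2.01 ± 0.26, adjusted p = 1.54e-05). *Itga6*, a laminin receptor chain, fell from 1171 ± 343 to 294 ± 62.3 at 7d (−1.62 ± 0.30, adjusted p = 0.000505) and *Cd44*, the hyaluronan receptor, from 4391 ± 363 to 1096 ± 362 (−1.93 ± 0.42, adjusted p = 0.00246).

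Of 26 other matrix genes 2 were higher and 4 lower at 24h (beside 6.22% and 5.27% of all genes). At 7d 3 were higher and 4 lower (beside 10.0% and 9.33%), and the medians were 0.00 at 24h and −0.08 at 7d. *Matn2*, a filament-forming matrilin, rose from 1149 ± 256 to 5910 ± 2532 at 24h (2.18 ± 0.27, adjusted p = 1.2e-05) and was at 4187 ± 2667 at 7d. *Fbln5*, fibulin 5, rose from 2013 ± 621 to 7205 ± 2560 at 24h and 15510 ± 14720 at 7d (2.43 ± 0.45, adjusted p = 0.000454). *Lamb3*, a beta chain of epithelial laminin, fell from 3645 ± 4449 to 396 ± 380 at 7d (−2.39 ± 0.35, adjusted p = 4.5e-05), but without the culture term it did not pass (adjusted p = 0.158). The 7d call of *Matn2* and the 24h call of *Fbln5* were lost without it as well. *Has2*, a hyaluronan synthase, was lower at 24h and 7d (−1.86 ± 0.36 at 7d, adjusted p = 0.000715).

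The matrix changes lay beside changes of the muscle list. Of its 12 genes 7 were higher at 24h, 10 at 48h and 11 at 7d, and 0 were lower (1, 1 and 7 higher without the culture term). With the culture term 6.22%, 7.57% and 10.0% of all genes were higher at these times. The summed signal of the muscle list went from 7566 to 17400 at 0h to 297062 to 842464 at 7d. The first genes of that list at 7d were *Cdh15* (2.18 ± 0.22, adjusted p = 3.49e-07), *Myl1*, a myosin light chain (7.07 ± 0.91, adjusted p = 9.68e-06), and *Tnnt3*, a troponin (5.80 ± 0.77, adjusted p = 1.34e-05). Of 8 tested fibroblast genes outside the matrix *Pdgfrb* was higher (0.85 ± 0.21, adjusted p = 0.00792) and *Twist2* lower (−1.78 ± 0.44, adjusted p = 0.00717) at 7d, and the summed signal of the list ran from 56920 to 97106 at 0h and from 49066 to 66262 at 7d. Most of that sum was *S100a4*, at 66040 ± 19640 at 0h and 46280 ± 11020 at 7d, so it says little about the other genes of the list. In the smooth muscle list *Acta2*, smooth muscle actin, and *Lmod1*, a leiomodin, were higher at 7d among 5 tested genes (2.31 and 1.83), with a summed signal of 9802 to 26515 at 0h and 40088 to 53519 at 7d. Without the culture term the 7d calls of *Pdgfrb*, *Lmod1* and *Cd14* were lost. Markers of endothelium and macrophages were mostly too dim to test, with 2 of 9 and 2 of 7 genes tested. Their summed signals were 1260 to 1514 and 3704 to 6978 at 0h and 1460 to 1847 and 3138 to 3447 at 7d. The endothelial cadherin gene *Cdh5* gave 15.0 to 102 over the 30 arrays and the leukocyte gene *Ptprc* at most 200 on any of its probe sets, and *Cd14* was lower at 7d (−0.78, adjusted p = 0.0201). Of the Schwann cell and adipocyte lists 0 of 2 and 0 of 1 tested genes passed, while the adipocyte sum in 1999 was 3326 at 7d, with the other 7d values at 457 and 391. The part of these cell types in the matrix changes was not tested, and in RNA of whole cultures fewer cells of a type and less RNA per cell cannot be told apart.

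The cultures differed in many matrix genes over the whole course. Of 35 genes 23 passed in the test of culture, which is 65.7%, beside 30% of all genes, and 5 of 6 fibrillar collagens were among them. In this test the 10 times of a culture stood in for replicates, as no culture was repeated. Its p-values therefore rest on the spread among the times and describe these cultures only. Whether further cultures of the same kind would differ as much was not tested. *Col1a2* came first among all 24307 probe sets when these were ordered by the smaller of the log2 differences of P6 and P10 from 1999. Over the 10 times its signal had a lowest, median and highest value of 42356, 54020 and 66049 in 1999, of 64.6, 89.3 and 174 in P6, and of 52.3, 173 and 617 in P10. The range of 1999 was far above the others at each time, and most of the P6 values lay below the added 119.8. The log2 difference from 1999 was −7.95 in P6 and −7.37 in P10 (adjusted p = 1.95e-18). A further *Col1a2* probe set on the same chip did not pass, with 3699 to 6249 in 1999, 3798 to 7194 in P6 and 4385 to 6846 in P10 (log2 differences of 0.01 and 0.07, adjusted p = 0.923). Which probe set follows the transcript was not tested.

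*Col15a1* came at place 24 in that order, with a lowest, median and highest signal of 290, 1154 and 5899 in 1999, of 21.0, 42.5 and 155 in P6, and of 26.6, 63.7 and 220 in P10 (log2 differences of −2.88 and −2.71, adjusted p = 5.58e-08). The 0h signal of 1999 was the lowest of that culture, and its 48h signal the highest. *Fbln2* had 29632 to 52066 in 1999, 10838 to 38534 in P6 and 10309 to 19490 in P10 (log2 differences of −0.998 and −1.40, adjusted p = 1.47e-06), and its further probe set did not pass (adjusted p = 0.834). *Col5a2* was lower in 1999, with 8439 to 19980 against 18186 to 54258 in P6 and 23484 to 35362 in P10 (1.18 and 1.27, adjusted p = 2.77e-05), and a further probe set of the gene did not pass (0.21 and 0.39, adjusted p = 0.146). *Col1a1* was lower in P6, at a median of 9594 against 21260 in 1999 and 24190 in P10. *Sparc* had its highest median in P10, at 35640 against 19220 and 24060, and *Tnc*, *Thbs2* and *Col18a1* their lowest. A further *Thbs2* probe set, with a median of 16016 over all arrays against 328, did not pass (−0.02 and −0.24, adjusted p = 0.41). On MG_U74Av2 the 1999 arrays were scanned in sessions that held no other culture, so 1999 and its sessions cannot be told apart. With scan session as a block 1 of 35 genes passed in the culture test, and the share of all genes with that block was not counted. The count of 1 cannot say which culture differences hold, because on that chip 1999 cannot be separated from its sessions.

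**Figure D5:**
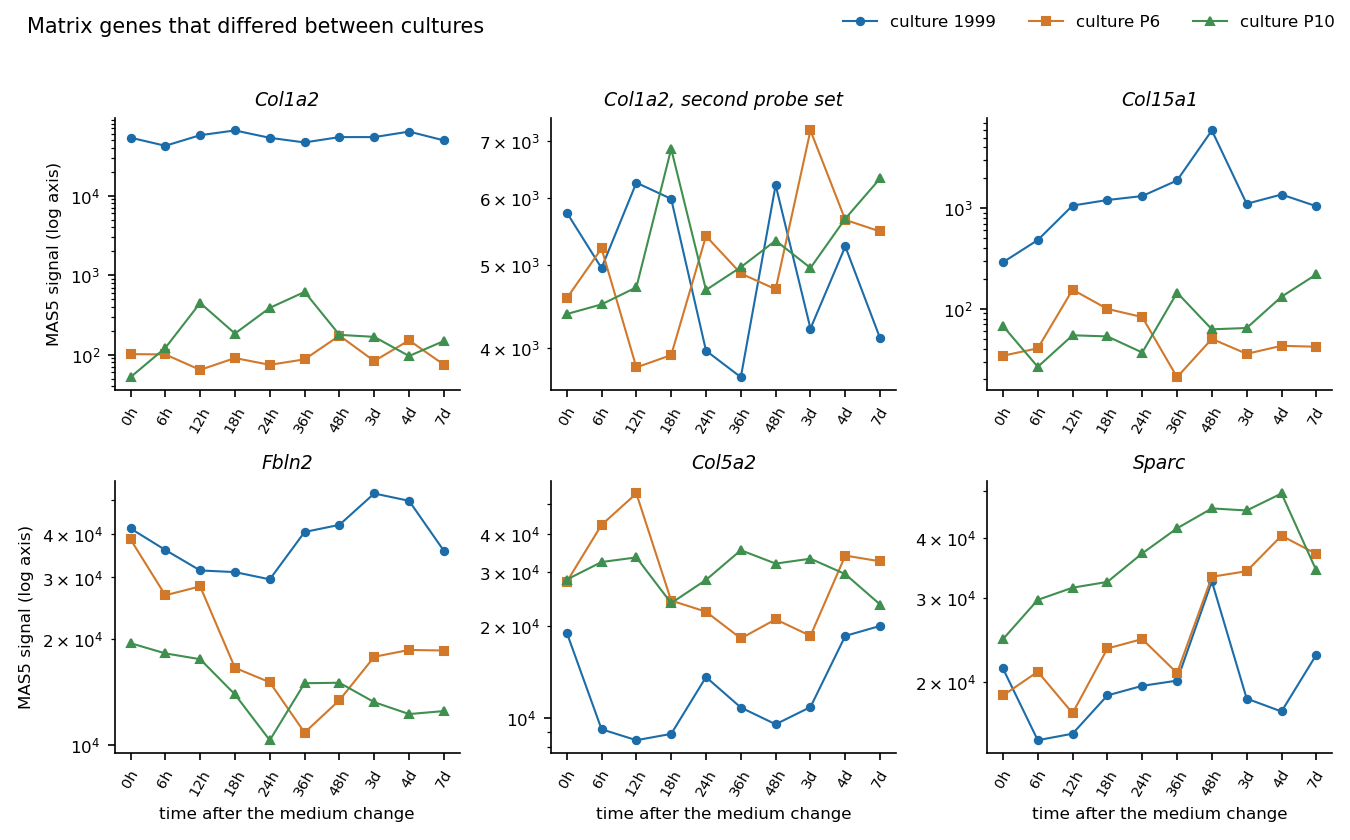
MAS5 signal (vertical axes, logarithmic) of *Col1a2* and a further *Col1a2* probe set, *Col15a1*, *Fbln2*, *Col5a2* and *Sparc* at each time after the medium change (horizontal axes), with 1 line per culture. *Col1a2* stays between 42356 and 66049 in 1999 and at or below 617 in the other cultures, while the lines of the further probe set cross between 3699 and 7194.

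A further comparison asked whether the cultures changed alike from an early phase, which was 0h to 12h, to a late phase, which was 3d to 7d. The 3 times of a phase stood in for replicates, which assumes that they vary no more than replicates would. Of 35 genes 2 passed, beside 2.05% of all genes, and these were the adjacent genes *Col4a1* and *Col4a2*, which encode the alpha 1 and alpha 2 chains of the usual type IV trimer. *Col4a1* had 2750, 3597 and 4241 early and 6113, 5127 and 3772 late in 1999, 3657, 2880 and 2928 early and 5510, 5628 and 4895 late in P6, and 7936, 7108 and 7581 early and 4650, 3380 and 2801 late in P10. The late values of P10 lay below its early range and those of P6 above theirs, while in 1999 the phases overlapped. The late minus early log2 difference was 0.48 in 1999, 0.74 in P6 and −1.07 in P10 (adjusted p = 0.0161). For *Col4a2* it was 0.68, 0.85 and −0.40 (adjusted p = 0.0449), and 0.60, 0.31 and −0.19 on a further probe set that did not pass (adjusted p = 0.428). The next smallest adjusted p were 0.0509 for *Fbln2* (0.33, −0.74 and −0.54) and 0.0741 for *Mmp14* (−0.20, 0.36 and −0.56). Without each culture in turn 0 of 35 genes passed, and with the chip median as the added value 4 did. The shares of all genes in these settings were not counted.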

How the data were processed

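RNA of 30 samples (3 cultures at 10 times) was read on 3 chips. The deposited values are MAS5 signals, an intensity per probe set computed from the scanned arrays with MAS5, per the submitters' processing notes. The scaling target, the probe masks and the RNA quality are not given in the sources used here. On MG_U74Av2 the mean signal of an array was from 2174 to 2532. Gene symbols came from the chip annotation, promoters from RefSeq (GRCm38.p6).

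Control probe sets (66 per chip) were left out. A probe set was tested where at least 3 of 30 arrays exceeded the chip median (527.3, 800.4 and 612.8 on MG_U74Av2, MG_U74Bv2 and MG_U74Cv2), after adding the 25th percentile (119.8, 270.1 and 213.0) and taking log2. Each chip was fitted with limma 3.58.1 in R 4.3.3, with time and culture as terms, and Benjamini-Hochberg adjustment ran over the 24307 probe sets of all chips. Tables and plots were made with pandas 2.3.3 and matplotlib 3.10.9 in Python 3.11.15. The code was tested on simulated data. The number of arrays limits the precision.

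A gene is given by 1 probe set, MG_U74Av2 first, then ids without a suffix mark, then the highest mean. Values of each culture are given for the 4 highest and 4 lowest called members at 24h and 7d, the 2 highest and 2 lowest at other times and the 4 smallest p in the tests by culture. Values of further members were chosen after they were seen. Of pathway lists up to 2 risen and 2 fallen genes are named, of marker lists up to 3. Members and lists were chosen with earlier results of these data known.

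Samples of 1 culture were paired by its name. Deviations from the time means of 135 pairs of samples per chip had a median correlation of 0.440, 0.232 and 0.0877 within a culture, against −0.199, −0.0846 and −0.0359 between cultures. It was over 0.1 in 125, 100 and 61 of the pairs, so on MG_U74Cv2 the pairing is weak. The deviations cancel out over the cultures at each time. The negative values between cultures therefore follow from those within and are no second check of the pairing. Arrays of 1 culture often shared a scan session as well, and its part was not tested.

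Alternatives were no culture term, other added values, no filter, quantile normalization, scan session as a block, only the 6 arrays compared, leaving out each culture or the arrays that stood apart, and the brightest probe set per gene.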

Additional observations from a re-analysis of the deposited data

Results flagged for a closer look

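The change of *Col4a1* from the early to the late phase differed between the cultures in the test of the difference itself (adjusted p = 0.01605), with P10 lower late and the other cultures higher late in the mean. For *Col4a2* the same test gave adjusted p = 0.04494, and its further probe set did not pass. The 0h and 6h arrays of P10 were scanned in another session than its late arrays. The session that held its arrays of 12h, 3d and 4d gave signals of *Col4a1* of 7581, 4650 and 3380. With scan session as a block 1 matrix gene passed in this comparison, and the part of the session in the difference was not tested.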

How the results depend on the processing

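The counts of matrix genes that passed were 2, 3, 5, 7, 7, 11, 9, 10 and 12 from 6h to 7d. Among the alternatives, shares of all genes were counted only without the culture term, for 6h, 12h, 48h and the joint test, as given above. In the others a loss of matrix calls is not set against that of all genes. With no replicate block they were 0 at 6h, 0 at 12h and 7 at 48h, and 6 in the joint test over all times. With only the 6 arrays compared they were 0 at 6h, 0 at 12h, 3 at 18h, 4 at 24h, 5 at 48h, 4 at 3d and 4 at 4d. At 6h 1 gene passed with 1 as the added value, 1 with no filter and 1 without the 6h and 12h arrays of P6. Leaving out each culture in turn gave 0 to 1 at 6h, 1 to 2 at 12h, 3 to 3 at 18h, 3 to 5 at 24h, 3 to 5 at 36h, 5 to 9 at 48h, 5 to 9 at 3d, 5 to 8 at 4d and 8 to 10 at 7d, with 4 to 6 in the joint test and 9 to 20 in the culture test. With scan session as a block 1 gene passed in the culture test, but this is no check of that test. On MG_U74Av2 culture 1999 cannot be separated from its sessions. The 2 calls in the change by culture became 4 with the chip median added, 1 with 1 added, 1 with no filter, 1 with scan session as a block, 1 without the 6h and 12h arrays of P6, 1 by the brightest probe set, and 0 to 0 without a culture. Between the later times 0 genes passed in every alternative run. By the brightest probe set *Lamb2* turned to −0.301 at 24h, −0.281 at 48h and −0.208 at 7d, which is another probe set by construction. Of 30 named changes at 24h, 48h and 7d, 16 were kept without P6, 17 with only the 6 arrays compared, 20 without 1999, 21 without P10, 21 with no replicate block, 27 without the 36h and 48h arrays of 1999, 28 with no filter, 25 with session in the model, 29 with 1 added, 30 with the chip median added, 30 without the 6h and 12h arrays of P6 and 29 under quantile normalization, and no other direction turned. Over all probe sets, calls fell without the block from 268 to 41 at 6h, from 2018 to 1026 at 24h and from 3633 to 2092 at 7d, and with scan session as a block to 1322 at 7d. The cause of these losses was not tested. Of the 35 genes 16 had several tested probe sets, and in 16 of 243 comparisons a called value stood beside one of opposite sign that was not called. Signals near the added value, as of *Nid2* at 0h, limit the fold changes that can be measured.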

Other observations

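The representative *Col1a2* probe set differed between cultures, while the further one did not pass (0.01 and 0.07, adjusted p = 0.923), and the genes that lie beside *Col1a2* on chromosome 6 differed less than the representative one. The log2 differences of P6 and P10 from 1999 were −0.15 and −0.95 for *Sgce*, 0.82 and 1.26 for *Peg10*, −0.24 and −0.43 for *Gng11*, and −0.01 and 0.02 for *Bet1*, against −7.95 and −7.37 for that probe set. In the order of all probe sets, *Cd99*, a cell surface glycoprotein gene, came next after it (−4.71 and −4.63), and *Meg3*, a long noncoding RNA gene, was the third (−4.06 and −3.96). *Xist* came at place 10, with 491 to 3075 in 1999, 16 to 265 in P6 and 13 to 86 in P10. Its log2 differences from 1999 were −3.07 and −3.195 (adjusted p = 1.32e-09 in the culture test). All P6 and P10 signals of *Meg3* and *Xist* lay below the chip median of 527.3, so these probe sets entered the test only through 1999. The origin of these differences was not tested.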
